A study of Rattus norvegicus with 14 samples.

Results

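Star encodes the steroidogenic acute regulatory protein, which moves cholesterol to the inner mitochondrial membrane, and it was followed here across the doses of a phthalate in fetal rat testis. It was taken as the 1 gene of that name among the 18174 genes of the count table. The file places it at chr16:66264807-66271673 on the minus strand of rn7, as a protein-coding gene with the identifier ENSRNOG00000015052. Pregnant Harlan Sprague Dawley dams received dicyclohexyl phthalate (DCHP), a plasticizer, in corn oil by gavage from gestational day 14 to 18, and control dams received corn oil alone. Fetal testes were collected on gestational day 18 and pooled within each litter, so that a library stands for 1 litter and differences between littermates cannot be seen. The 14 litters comprised 3 each at vehicle, 100, 300 and 600 mg/kg/day and 2 at 900 mg/kg/day. RNA was measured with TempO-Seq, a targeted assay in which pairs of detector probes are joined on their target RNA and then sequenced.

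Steroid hormones are made from cholesterol, and the enzyme that makes the first steroid, Cyp11a1, sits inside the mitochondrion. STAR protein carries cholesterol to it from the outer membrane, a step that limits the rate of acute steroid production in testis and adrenal gland. In the fetal testis the Leydig cells, which lie between the cords, express Star and supply the testosterone that masculinizes the male tract. The gene is switched on through cyclic AMP and factors such as Nr5a1, Gata4 and Cebpb.

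The libraries held 5558873 to 11272861 counts, of which Star took 0.0126% over all 14. Levels are given as CPM, which are counts scaled to a common library total, after TMM scaling, an edgeR method that adjusts library totals for composition. Its factors ran from 0.956 to 1.06. Correlations between litters of a group, over log2 CPM of all tested genes, were 0.931 to 0.983. On the first principal component, which held 36.1% of the variance, vehicle litter 1 (-42.6) and 100 mg/kg/day litter 1 (-65.1) stood apart from the rest of their groups, as did both litters at 900 mg/kg/day (-38.2 and -22.8) from those at 600. Results for Star are also given without vehicle litter 1 and 100 mg/kg/day litter 1, with both 900 mg/kg/day litters kept. That choice was made after seeing the data. The correlation of Star with that component over the 14 litters was -0.184, as a description.

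Star was lower in every exposed litter than in every vehicle litter, and its level stepped down from vehicle through 600 mg/kg/day. The vehicle litters held 343, 209 and 283 CPM of Star, from 3456, 2097 and 2480 counts. At 100 mg/kg/day the litters held 171, 115 and 90.8 CPM, and at 300 mg/kg/day 80.6, 83.2 and 64.8 CPM. At 600 mg/kg/day they held 54.8, 55.5 and 33.8 CPM, and at 900 mg/kg/day 45.5 and 47.5 CPM. The lowest vehicle litter stood above the highest litter at 100 mg/kg/day, and neighbouring groups did not overlap at any step down to 600 mg/kg/day. The litters at 900 mg/kg/day lay inside the range of those at 600 mg/kg/day. The fewest counts behind a value were 183, in litter 3 at 600 mg/kg/day, where counting error alone was 7.39% and the 95% Wilson interval ran from 28.5 to 38.0 CPM around an unscaled 32.9 CPM. Against that, edgeR's biological coefficient of variation for Star, 1 value for all doses, was 0.220, above that counting error. The 2 litters at 900 mg/kg/day differed less, with a coefficient of variation of 2.97% beside counting errors of 5.14% and 4.25%. Intervals from counts cover counting error only.

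**Figure D1:**
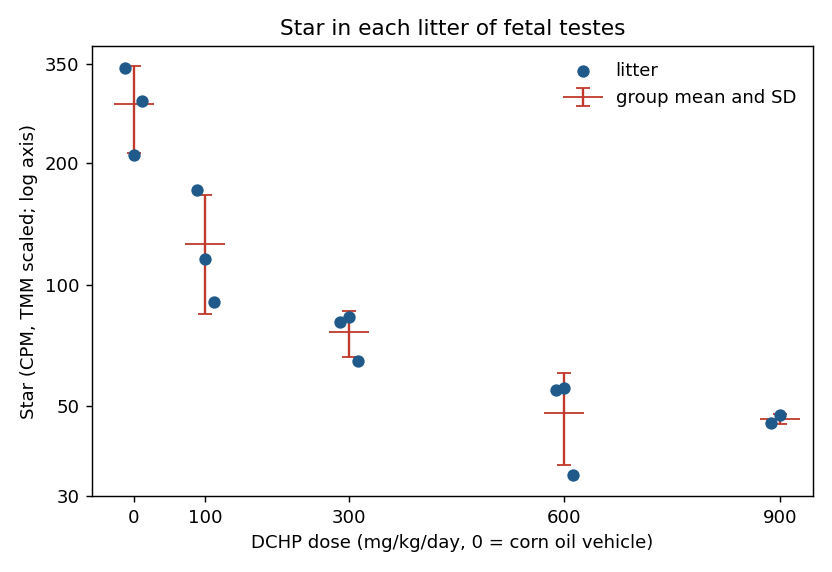
Star in CPM on a log axis against DCHP dose in mg/kg/day, with each point 1 litter and the cross bars the group mean and SD. The 3 vehicle litters sit between 209 and 343 CPM, and the 900 mg/kg/day litters, at 45.5 and 47.5 CPM, lie within the spread of the 600 mg/kg/day litters.

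Group means were 278 ± 67.3 CPM for vehicle (SD, n = 3), 126 ± 41.0 at 100 (n = 3), 76.2 ± 9.95 at 300 (n = 3), 48.0 ± 12.3 at 600 (n = 3) and 46.5 ± 1.38 at 900 mg/kg/day (n = 2). The relative spread between litters was widest at 100 mg/kg/day, with a coefficient of variation of 32.6%, and stood at 24.2% in vehicle. As shares of the vehicle mean, single litters reached 61.3%, 41.5% and 32.6% at 100 mg/kg/day and at most 19.9% at 600 mg/kg/day. In whole testis pools, fewer Leydig cells and less Star RNA per cell cannot be told apart.

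Star fell at 300, 600 and 900 mg/kg/day in edgeR's quasi-likelihood test, fitted to all 14 litters with Benjamini-Hochberg adjustment over 12719 tested genes and called at an adjusted p under 0.05. The log2 fold change at 300 mg/kg/day was -1.87 ± 0.25 (SE), which is 27.4% of vehicle (95% interval 18.8% to 40.0%), with an adjusted p of 0.0287. At this dose 6 genes fell, or 0.0472% of those tested, and Star had the smallest p. The call at 300 mg/kg/day was lost without vehicle litter 1 (adjusted p = 0.0700) or 3 (0.125), without any single 300 mg/kg/day litter (0.123 to 0.269), and without 600 mg/kg/day litter 1 (0.0531) or 2 (0.0612). Without the 2 libraries that stood apart on the first component it was kept, at -1.69 (adjusted p = 0.00533).

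At 600 mg/kg/day the edgeR log2 fold change of Star was -2.53 ± 0.26 (adjusted p = 0.00147), or 17.3% of vehicle (11.7% to 25.5%), again with the smallest p of all genes. Here 24 genes fell, 0.189% of those tested. This call was kept when any 1 of the 14 litters was left out, with log2 fold changes from -2.70 to -2.34. At 900 mg/kg/day Star reached -2.58 ± 0.30 (edgeR adjusted p = 0.00275), or 16.7% of vehicle (10.6% to 26.3%), where 26 genes fell, 0.204% of those tested. That call was lost without litter 1 (0.0976) or litter 2 (0.0687) of the 900 mg/kg/day group, which leaves 1 litter assumed to vary like the other groups. Without vehicle litter 1 and 100 mg/kg/day litter 1 the values were -2.35 (adjusted p = 0.000737) and -2.43 (0.000338).

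At 100 mg/kg/day the edgeR log2 fold change of Star was -1.15 ± 0.25 (95% interval -1.68 to -0.62), or 45.1% of vehicle (31.2% to 65.2%), with an unadjusted p of 0.000439 and an adjusted p of 0.9999. By edgeR no gene passed at this dose (0%), while 433 (3.4% of those tested) had an unadjusted p under 0.05 and Star ranked 3 among them. DESeq2 called 2 genes there and gave Star -1.14 with an adjusted p of 0.0492. Without vehicle litter 1 and 100 mg/kg/day litter 1 the edgeR value was -1.25 (adjusted p = 0.335). The 3 exposed litters nevertheless all lay below the 3 vehicle litters, as did 380 of the tested genes (2.99%). At 300, 600 and 900 mg/kg/day 4.46%, 5.92% and 8.83% of genes showed that separation. In exact permutation tests of Star alone against vehicle, p was 0.1, 0.1, 0.1 and 0.2 at the rising doses, two-sided, which is the smallest value 3 or 2 litters against 3 can give.

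Over all doses Star fell by 0.28 ± 0.041 log2 units per 100 mg/kg/day in the edgeR trend (adjusted p = 0.00418, rank 12 by p), where 42 genes fell (0.33%) and 12 rose (0.0943%). Without vehicle litter 1 and 100 mg/kg/day litter 1 the slope was -0.25 (edgeR adjusted p = 0.0113). In a permutation test on the 14 litters that uses no other gene, the slope of log2 CPM was -0.27 ± 0.048 (p = 0.00019, two-sided, 100000 resamples). Pearson's r between dose and Star was -0.854, for which the permutation test of the slope is the same test. Spearman's rho was -0.959 (permutation p = 2e-05). Leaving out the 2 litters farthest from the median dose, both at 900 mg/kg/day, r was -0.893 (n = 12).

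Most of the drop in Star lay at the low end of the dose range. Per 100 mg/kg/day, the fitted log2 change was -1.15 ± 0.25 from vehicle to 100, -0.36 ± 0.12 from 100 to 300, -0.22 ± 0.084 from 300 to 600 and -0.017 ± 0.093 from 600 to 900 mg/kg/day. Each step was thus flatter than the one before it in its estimate. The slope below 300 mg/kg/day minus that above it was -0.50 ± 0.11 (95% interval -0.75 to -0.26), with an unadjusted edgeR p of 0.000688. Adjusted over all genes that p was 0.879, so the bend did not pass. No gene passed that test (0%) in edgeR or DESeq2, and 450 (3.54%) had an unadjusted edgeR p under 0.05. The departure of Star from a straight line on dose, of which the bend is 1 form, had an unadjusted edgeR p of 0.00108 (adjusted 0.910).

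Neighbouring doses were then compared directly. From 100 to 300 mg/kg/day Star changed by -0.72 ± 0.25 (95% interval -1.25 to -0.19, edgeR adjusted p = 0.999), and from 300 to 600 mg/kg/day by -0.66 ± 0.25 (-1.20 to -0.12, adjusted p = 1). Neither step passed over all genes, although the litters did not overlap in either. From 600 to 900 mg/kg/day the change was -0.050 ± 0.28, and its interval of -0.65 to 0.56 allows 63.5% to 147% of the 600 mg/kg/day level. Its sign turned with library totals alone (0.057), with no filter on low counts (0.0045) and without 600 mg/kg/day litter 1 (0.056) or 2 (0.065). By edgeR no gene passed in these 3 comparisons (0%), and DESeq2 called 0, 0 and 8. Below an unadjusted edgeR p of 0.05 were 312 (2.45%), 161 (1.27%) and 1058 (8.32%) of the tested genes. The order of Star levels was thus vehicle, 100, 300 and 600 mg/kg/day without overlap, with 600 and 900 mg/kg/day inseparable at this number of litters. Such a descent, with every litter below every litter of the dose before it through 600 mg/kg/day, was shown by 6 of the tested genes (0.0472%). They were Star, Scarb1, Fdx1, Inhba, Idi1 and Cdkn1c, and this criterion was chosen after their values were seen.

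A Hill curve with no floor, fitted to log2 CPM of the 14 litters, put the dose that leaves 50% of vehicle Star below 100 mg/kg/day, the lowest dose given. The upper 95% bound from its profile was 172 mg/kg/day, and the residual SD was 0.332 log2 units. A curve with a free floor, which came to 9.17% of the top, and straight lines between group means also put that dose below 100 mg/kg/day. Of other genes that Leydig cells express, Scarb1 reached 50% at 111 mg/kg/day (upper bound 251), Fdx1 at 185 (upper bound 315) and Cyp17a1 at 281 (upper bound 612). Cyp11a1 reached it at 314 (103 to 612), Insl3 at 376 (below 100 to above 900) and Inha, which Sertoli cells express too, at 628 (237 to above 900). Differences between these doses were not tested, and most of the intervals overlap.

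The gene whose level was most like that of Star over the litters was Scarb1, the receptor that takes up cholesterol from high-density lipoprotein. Its vehicle litters held 201, 192 and 165 CPM, and its litters at 100 mg/kg/day 135, 104 and 72.5 CPM. At 300 mg/kg/day Scarb1 stood at 67.6, 58.4 and 60.3 CPM, at 600 mg/kg/day at 41.5, 54.9 and 31.1 CPM, and at 900 mg/kg/day at 44.0 and 38.9 CPM. As for Star, the highest litter at 100 mg/kg/day was litter 1 and the lowest at 600 mg/kg/day was litter 3. The order of litters differed in the other groups. The lowest vehicle litter was litter 2 for Star and litter 3 for Scarb1, and at 300 mg/kg/day litter 3 and litter 2. At 900 mg/kg/day litter 2 was the higher for Star and litter 1 for Scarb1. The edgeR log2 fold changes of Scarb1 were -0.84 ± 0.22, -1.58 ± 0.22, -2.13 ± 0.23 and -2.17 ± 0.26 at the 4 doses, with adjusted p of 0.9999, 0.0287, 0.00147 and 0.00282.

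**Figure D2:**
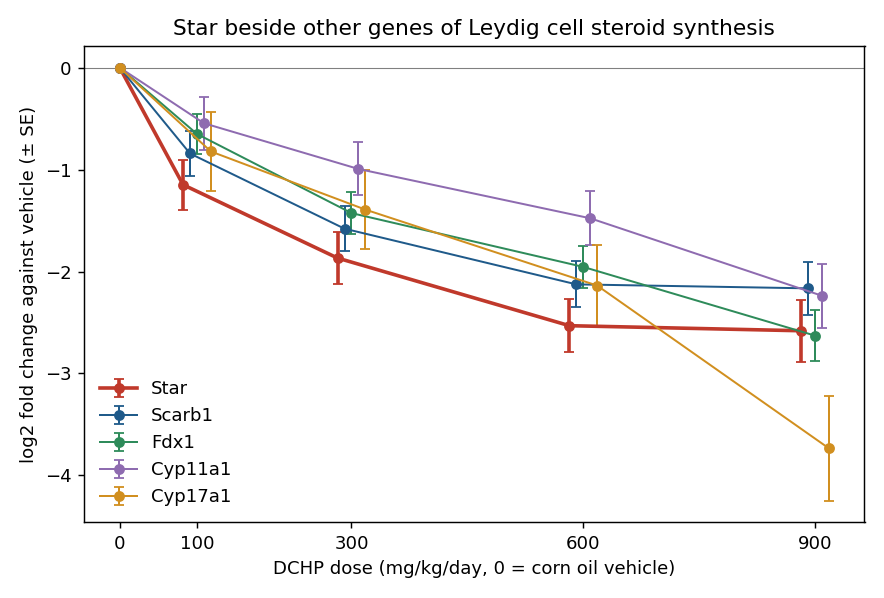
The edgeR log2 fold change against vehicle (± SE) on the y axis against DCHP dose in mg/kg/day, for Star and 4 other genes of Leydig cell steroid synthesis, with points set slightly apart along the dose axis. Star and Scarb1 flatten between 600 and 900 mg/kg/day (Star -2.53 and -2.58), while Cyp17a1 goes from -2.14 to -3.74.

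Fdx1, Cyp11a1 and Cyp17a1, which act after Star, had lower estimates at 900 than at 600 mg/kg/day, where the estimates for Star were close to each other, although no gene passed between those doses in edgeR. Fdxr, Hsd3b2, Por and Srd5a1 of the later steps had higher estimates at 900 than at 600 mg/kg/day, from -0.98 to -0.53, -0.92 to -0.70, -0.73 to 0.27 and -0.82 to 0.30. Fdx1, the electron carrier that feeds Cyp11a1, had edgeR log2 fold changes of -1.43 at 300, -1.96 at 600 and -2.63 at 900 mg/kg/day (adjusted p = 0.0287, 0.00147 and 0.000729). Cyp11a1, which cleaves the cholesterol side chain, fell by 1.48 at 600 (edgeR adjusted p = 0.0433) and by 2.24 at 900 mg/kg/day (0.00805). Cyp17a1, which makes androgen precursors, stood at -2.14 at 600 (edgeR adjusted p = 0.0584) and fell by 3.74 at 900 mg/kg/day (0.00716). At 900 mg/kg/day its 2 litters held 20.6 and 31.5 CPM, below the 107, 72.9 and 57.0 CPM of the 600 mg/kg/day litters. These comparisons with vehicle share their control litters with those of Star.

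To set Star against those genes inside each litter, the log2 ratio of Star to each of 6 genes was taken and its slope over dose tested by permutation, with adjustment over the 6. The ratio to Inha, the inhibin alpha subunit that Leydig and Sertoli cells express, declined with dose, at -0.16 ± 0.041 per 100 mg/kg/day (adjusted p = 0.0193). Relative to the vehicle mean that ratio was lower in all 3 litters at 300 and at 600 mg/kg/day, by 1.15 ± 0.20 and 1.60 ± 0.16 log2 units (SD, n = 3), and in both at 900 mg/kg/day. The slope of the ratio was -0.036 ± 0.019 for Scarb1 (adjusted p = 0.265), 0.0041 ± 0.039 for Fdx1 (0.919) and -0.043 ± 0.053 for Cyp11a1 (0.512), all by permutation. It was 0.089 ± 0.071 for Cyp17a1 (0.421) and -0.076 ± 0.067 for Insl3 (0.421), by the same permutation test. Star thus declined more steeply than Inha over the dose range, and no difference from the other 5 genes passed the test at this number of litters. Without vehicle litter 1 and 100 mg/kg/day litter 1, an alternative chosen after seeing the data, the slope for Inha was -0.11 (permutation, adjusted p = 0.0297) and that for Cyp17a1 0.17 (0.0321). For Cyp11a1 it turned to 0.013 (permutation, adjusted p = 0.914).

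A slope averages over a change that was not steady. At 600 mg/kg/day the ratio of Star to Cyp11a1 stood at -1.05 ± 0.11 and that to Fdx1 at -0.58 ± 0.17 against the vehicle mean, in log2 units (SD, n = 3). At 900 mg/kg/day the same ratios were -0.29 ± 0.46 and 0.072 ± 0.19 (n = 2). For Cyp17a1 the ratio went from -0.44 ± 0.29 to 1.12 ± 0.39, a 2.95-fold rise relative to 600 mg/kg/day. Between these 2 doses the litters did not overlap in the ratio of Star to Fdx1, Cyp11a1, Cyp17a1, Inha or Insl3, and did in the ratio to Scarb1. Each of the 5 had an exact permutation p of 0.2, the smallest that 2 litters against 3 can give, so no step could pass. All these ratios share the same Star values. How often ratios of Star to other tested genes separate in this way was not counted.

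**Figure D3:**
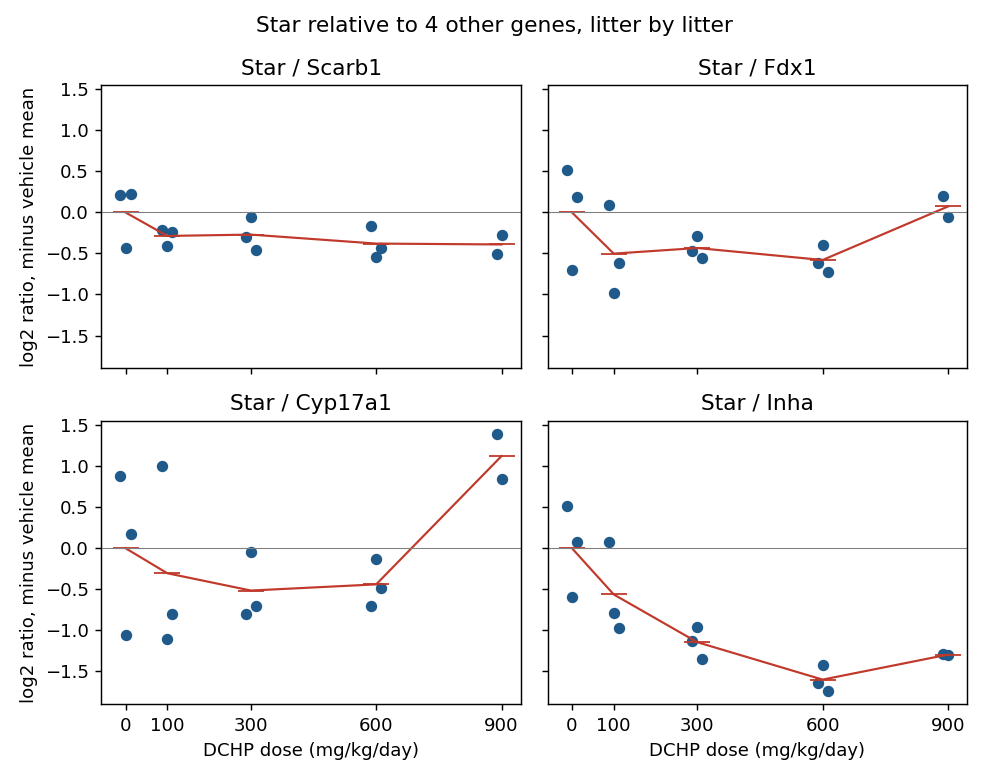
The log2 ratio of Star to Scarb1, Fdx1, Cyp17a1 and Inha in each litter, minus the vehicle mean of that ratio, against DCHP dose in mg/kg/day, with points for litters and the line through group means. The ratio to Scarb1 stays within a narrow band, that to Inha drops by 1.60 at 600 mg/kg/day, and that to Cyp17a1 rises to 1.12 at 900 mg/kg/day.

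Among the vehicle litters Star ran in the opposite order to Cyp17a1, Fdx1, Cyp11a1 and Insl3. Litter 1 had the most Star (343 CPM) and the least Cyp17a1 (223 CPM), whereas litter 2 had the least Star (209 CPM) and the most Cyp17a1 (523 CPM), with litter 3 between them in both (283 and 300 CPM). Fdx1 ran 2459, 3491 and 2541 CPM and Cyp11a1 696, 1083 and 760 CPM over litters 1 to 3. Insl3, the Leydig cell peptide that guides testis descent, held 2275, 5869 and 3444 CPM in the same litters. In each of these genes litter 2 was highest and litter 1 lowest, the reverse of Star. At 100 mg/kg/day litter 1 likewise had the most Star (171 CPM) and the least Cyp17a1 (102 CPM, against 299 and 190). Litter 1 of both groups is the library that stood apart on the first component, and its part in this order was not tested. The SD of the vehicle ratio of Star to Cyp17a1 was accordingly 0.99 log2 units, against 0.38 for the ratio to Scarb1.

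With the dose group means removed, the r of Star over the 14 litters was 0.748 with Scarb1, which ranked 739 of 10445 genes, and 0.861 with Stc2, which ranked 66. It was -0.359 with Cyp17a1, -0.158 with Cyp11a1 and 0.141 with Fdx1, and 0.660 with Fdxr and 0.763 with Srd5a1 of the same pathway. These correlations, and those that follow, are descriptions over litters whose values come from the same libraries.

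**Figure D4:**
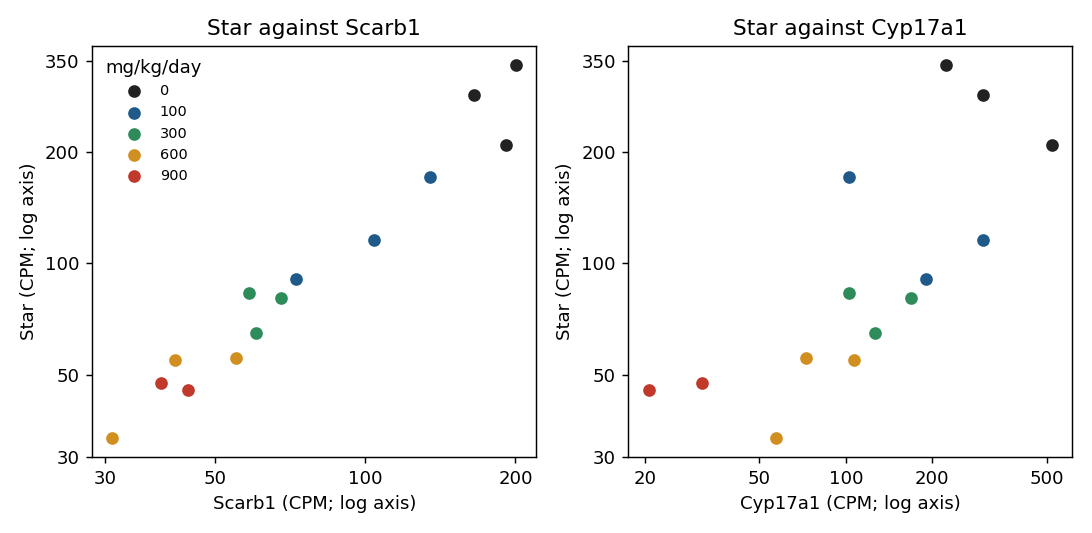
Star against Scarb1 and against Cyp17a1, both in CPM on log axes, with each point 1 litter coloured by dose in mg/kg/day. The litters line up along Scarb1 (r = 0.979 over 14 litters), whereas in the panel for Cyp17a1 the vehicle litter with the most Star, 343 CPM, has the least Cyp17a1, 223 CPM.

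Among 10445 genes with a mean count of at least 20, 17 had a Pearson r with Star over 0.9 in log2 CPM, and the median over all was 0.0144. The 10 with the highest r were Scarb1 (0.979), Stc2 (0.975), Hsd17b7 (0.951), Fdft1 (0.935), Cdkn1c (0.935), Pcyt2 (0.928), Ephx1 (0.924), Stard4 (0.923), Pdhx (0.919) and Acat2 (0.914). Hsd17b7, Fdft1 and Acat2 encode enzymes of cholesterol synthesis, Cdkn1c is a cell cycle inhibitor, and Stc2 is a secreted glycoprotein. By rank correlation 4 of the 10 were again in the top 10, and with dose means removed 0 of the 10 were. The r of Star with dose itself was -0.854 over the same litters.

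At 600 mg/kg/day Stc2 fell by 1.72, Cdkn1c by 1.53, Acat2 by 1.43, Fdft1 by 0.67 and Pcyt2 by 0.59 log2 units (edgeR adjusted p = 0.0110, 0.00316, 0.0185, 0.0147 and 0.0378). Hsd17b7 stood at -0.68 (edgeR adjusted p = 0.177), Ephx1 at -0.91 (0.302) and Pdhx at -0.29 (0.630). Of the 10, Scarb1 at -2.13 was nearest to the -2.53 of Star. At the other end were Testin (r = -0.913), Lrrc39 (-0.909) and Ldb3 (-0.893). They rose at 600 mg/kg/day by 3.01, 3.29 and 1.74 log2 units (edgeR adjusted p = 0.00521, 0.0458 and 0.0467), among the 4 genes that rose there (0.0314%). Leaving out 1 litter in turn lost the call of Lrrc39 in 11 and that of Ldb3 in 12 of 14 fits.

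Star gave its name to a family of proteins with a lipid-binding START domain. Of 15 other genes listed with this family, among them the Stard3 relative Stard3nl, 12 were tested. At 900 mg/kg/day and in the trend, where 0.204% and 0.33% of all tested genes fell, 1 of them fell. That gene was Stard4, a carrier of cholesterol in the cytosol. It stood at -0.55 ± 0.12 at 600 (edgeR adjusted p = 0.128), fell by 0.73 ± 0.13 at 900 mg/kg/day (0.0419) and had a slope of -0.079 ± 0.013 per 100 mg/kg/day (0.00664). Its vehicle litters held 145, 148 and 166 CPM and its 900 mg/kg/day litters 96.5 and 88.7 CPM, without overlap. At that dose 8.83% of tested genes lay wholly below vehicle. Stard3, which holds cholesterol at late endosomes, had a slope of 0.053 ± 0.035 (edgeR adjusted p = 0.9999). The median log2 fold change of the 12 was -0.082 at 600 mg/kg/day, beside -0.022 over all tested genes.

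The proteins thought to work with STAR at the mitochondrial membrane, among them Tspo, the voltage-dependent anion channels and Acsl4, gave no call. Of 15 listed 11 were tested and 0 passed in edgeR at any dose or in the trend. Their log2 fold changes ran from -0.47 to 0.42 at 600 mg/kg/day, with a median of -0.026. Tspo itself stood at 0.061 ± 0.23 (edgeR adjusted p = 0.970), a value named after it was seen.

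Of 11 genes for the steps after Star, 3 fell at 600, 4 at 900 mg/kg/day and 5 in the trend, where 0.189%, 0.204% and 0.33% of all tested genes fell, and none of the 11 rose. Their median log2 fold change was -0.96 at 600 and -0.70 at 900 mg/kg/day, beside -0.022 and 0.024 over all genes. Besides Fdx1, Cyp11a1 and Cyp17a1, the 3β-hydroxysteroid dehydrogenase Hsd3b3 fell by 0.97 ± 0.17 at 600 and by 1.42 ± 0.20 at 900 mg/kg/day (edgeR adjusted p = 0.0433 and 0.00805). Hsd3b1 had a slope of -0.14 ± 0.028 per 100 mg/kg/day (edgeR adjusted p = 0.0433), but the 2 are close paralogs and counts may be split between them. At 100 mg/kg/day 0 of the 11 passed, with a median of -0.55.

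Of 11 tested genes for the supply and storage of cholesterol, which provide the substrate of Star, Scarb1 fell at 300, 600 and 900 mg/kg/day. It was the 1 member that fell at each of these doses, where 0.0472%, 0.189% and 0.204% of all tested genes fell, and none rose. The median was -0.28 at 600 and 0.038 at 900 mg/kg/day, beside -0.022 and 0.024 over all genes. Abcg1, which exports cholesterol, had a slope of 0.070 ± 0.022 (edgeR adjusted p = 0.387).

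Of 23 tested transcription factors linked to the Star gene, 1 fell, at 900 mg/kg/day, where 0.204% of all tested genes fell. Cebpb, which binds the Star promoter, stood at -0.74 ± 0.19 at 100 and -0.88 ± 0.19 at 600 (edgeR adjusted p = 0.9999 and 0.168) and fell by 1.36 ± 0.22 at 900 mg/kg/day (0.0211). Its vehicle litters held 52.8, 92.0 and 65.8 CPM, so that the litter with the most Star had the least Cebpb, and the 900 mg/kg/day litters held 25.8 and 28.8 CPM. Nr5a1, the nuclear receptor that drives most steroidogenic genes, stood at -0.52 ± 0.21 at 600 mg/kg/day (edgeR adjusted p = 0.951), a value named after it was seen. Nr0b1, a repressor of Nr5a1 with a mean count of 9.29, stood at -0.83 ± 0.61, and Crtc2, a coactivator of the cyclic AMP response, at -0.64 ± 0.31 (both edgeR adjusted p = 0.951). The median of the 23 was -0.11 at 600 mg/kg/day.

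Of 17 tested genes of the gonadotropin receptor and its cyclic AMP signal, which acts upstream of Star, 0 passed in edgeR in any comparison. Lhcgr, the luteinizing hormone receptor, stood at -1.04 ± 0.43 at 600 mg/kg/day (edgeR adjusted p = 0.951) with a mean of 19.1 counts, too few for a firm value. Prkar2b, a regulatory subunit of protein kinase A, had a slope of -0.049 ± 0.015 and the phosphodiesterase Pde4b one of 0.098 ± 0.033 (edgeR adjusted p = 0.351 and 0.496). The anchor Akap1 and the decay factors Zfp36, Zfp36l1 and Zfp36l2, which act on Star mRNA, lay between 0.028 and 0.20 at 600 mg/kg/day, and 0 of the 4 passed in edgeR.

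Of the genes listed as other markers of fetal Leydig cells 2 passed, in the direction of Star, and 1 of these, Inha, is also expressed by Sertoli cells. Of all tested genes 0.189% fell at 600, 0.204% at 900 mg/kg/day and 0.33% in the trend. Among the 7 tested, Inha fell by 0.92 ± 0.15 at 600 and by 1.26 ± 0.17 at 900 mg/kg/day (edgeR adjusted p = 0.0290 and 0.00716), and Insl3 fell in the trend (-0.20 ± 0.042, 0.0466). Leaving out 1 litter in turn lost the trend call of Insl3 in 11 of 14 fits and the call of Inha at 600 mg/kg/day in 8. Prlr, the prolactin receptor, stood at -1.49 ± 0.37 at 600 mg/kg/day (edgeR adjusted p = 0.302). At that dose Mgarp stood at -0.51 ± 0.19, while Dlk1 and Thbs2 went the other way, at 0.087 ± 0.12 and 0.19 ± 0.18. At 900 mg/kg/day these 3 genes stood at -0.032, 0.19 and -0.028. The summed level of the 7 was 2691 to 6302 CPM in vehicle, 1851 to 3407 at 100, 1922 to 2724 at 300, 1307 to 2988 at 600 and 1079 to 1215 CPM at 900 mg/kg/day. It overlapped between vehicle and each dose up to 600 mg/kg/day, where Star did not overlap. Insl3 made up most of this sum, at a mean of 3862 of 4283 CPM in vehicle. Inha held 172, 226 and 192 CPM in the vehicle litters, 116 to 143 at 100 and 116 to 126 at 300 mg/kg/day. At 600 and 900 mg/kg/day it held 81.6 to 122 and 80.1 to 84.0 CPM. Inha did not overlap vehicle at any dose, as Star did not. Wholly below vehicle lay 2.99%, 4.46%, 5.92% and 8.83% of tested genes at 100, 300, 600 and 900 mg/kg/day. The vehicle litter with the most Star had the lowest sum, 2691 CPM. The part of Leydig cell number in the Star result was not tested.

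The adrenal gland, whose cortex also expresses Star, lies near the fetal testis, so markers of its cortex and medulla were read in the same libraries. Of 9 markers 4 were not analysed here and 3 were tested, of which 0 passed in edgeR. Mc2r, the corticotropin receptor, had at most 9 counts in a library, and Dbh, of the medulla, was at 0 in 8 libraries. The adrenal sum was 8.34 to 10.3 CPM in vehicle, with Chga of the medulla at a mean of 5.45 of the 9.44 CPM. It was 6.92 to 9.08 at 100, 5.40 to 8.92 at 300 and 7.50 to 9.17 CPM at 600 mg/kg/day, overlapping vehicle. At 900 mg/kg/day the adrenal sum was 5.24 to 6.87 CPM, below vehicle without overlap. Mrap, the partner of Mc2r in the cortex, had a mean of 13.6 counts. It stood at -1.67 ± 0.56 at 600 and -2.57 ± 0.68 at 900 mg/kg/day (edgeR adjusted p = 0.807 and 0.282). Markers of the other cell types gave 0 calls in edgeR in any comparison with vehicle or in the trend, with 6 Sertoli, 8 germ, 6 peritubular, 9 interstitial, 5 endothelial, 6 macrophage, 6 erythroid and 1 mesonephric genes tested. Defining markers of the testis were present in every library, with the Sertoli sum, which includes Amh and Sox9, at 926 to 1170 CPM. The interstitial sum was 772 to 938 CPM in vehicle and 1048 to 1063 CPM at 900 mg/kg/day, without overlap. At 100 mg/kg/day litter 1 stood at 1018 CPM, against 702 and 731 CPM in the other litters. The sums at 300 and 600 mg/kg/day were 748 to 833 and 781 to 821 CPM. The 900 mg/kg/day litters, 100 mg/kg/day litter 1 and vehicle litter 1 (938 CPM) are the libraries that stood apart on the first component. Endothelial markers summed to 275 to 317 CPM in vehicle and 319 to 320 CPM at 900 mg/kg/day, without overlap, and overlapped vehicle at the lower doses. Erythroid markers summed to 15208 to 43178 CPM in vehicle, 13953 to 34327 at 100 and 15553 to 27222 at 300 mg/kg/day. At 600 and 900 mg/kg/day they summed to 24233 to 74759 and 13403 to 19784 CPM. Litter 1 had the highest erythroid sum in vehicle and at 100 mg/kg/day. The peritubular sum was 282 to 317 CPM in vehicle, 331 to 376 at 300 and 342 to 416 CPM at 600 mg/kg/day, and the macrophage sum was 18.5 to 20.7, 21.7 to 27.7 and 23.3 to 28.3 CPM in the same groups. Both lay above vehicle without overlap at 300 and 600 mg/kg/day and overlapped it at 100 and 900 mg/kg/day. How many single genes lay wholly above vehicle was not counted. Wholly below it lay 4.46%, 5.92% and 8.83% of tested genes at 300, 600 and 900 mg/kg/day. Mean counts of the macrophage genes ran from 4.71 (Cd163) to 104 (Mrc1). The separations of these sums were not tested. The part of these cell types in the Star result was not tested.

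The genes beside Star on chromosome 16 were read in the same way, and none of those tested passed. Ash2l, 745 bases away, and Hgsnat lie on the side of lower coordinates, with Kcnu1 between them at a mean of 2 counts and not tested. Lsm1, Bag4 and Ddhd2 follow on the other side, the first 5672 bases away. The 5 tested neighbours had edgeR log2 fold changes from -0.66 (Hgsnat, SE 0.40) to -0.0069 (Bag4) at 600 and from -0.31 (Lsm1) to 0.49 (Ddhd2) at 900 mg/kg/day. The values of Star at these doses were -2.53 and -2.58.

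**Figure D5:**
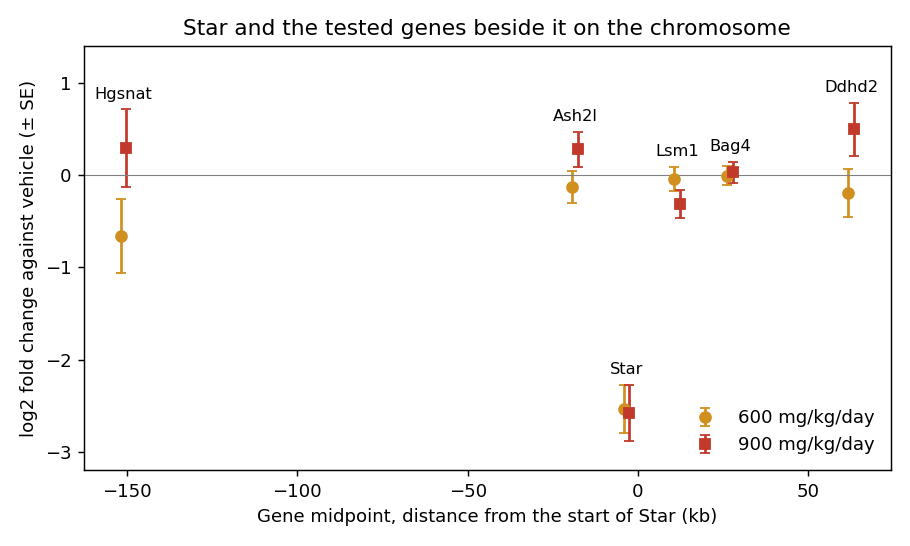
The edgeR log2 fold change against vehicle (± SE) at 600 and 900 mg/kg/day for Star and its 5 tested neighbours, against the distance of each gene's midpoint from the start of Star in kb. Star lies at -2.53 and -2.58, and the neighbours between -0.66 and 0.49.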

How the data were processed

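Gene expression was measured by TempO-Seq in pooled fetal testes of 14 litters, grouped by dose from the labels. Estimated counts per gene were made by the authors and used as deposited, and the tool is not given in the sources used here. The submitters' processing notes name STAR 2.7.8a, Partek, DESeq2 and the build rn7 without roles. Of the deposited estimated counts 83.6% are whole to a tolerance of 1e-09, and the rest were rounded. A further deposited table multiplies 16 abundant genes by an attenuation factor, of which Star is not 1. The log2 CPM values of Star that the authors deposited differed from those computed here by -0.080 to 0.072.

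After filterByExpr, 12719 genes were kept and 5455 left out. TMM scaling and a quasi-likelihood fit (edgeR 4.0.16, R 4.3.3) over 14 litters with 9 residual degrees of freedom gave contrasts between doses, and a second fit the slope on dose. The log2 CPM for correlations, ratios and curves used a prior count of 2. Permutations and curves used scipy 1.17.1. Alternatives were other scalings, no filter, DESeq2 1.42.0, attenuation-adjusted counts, prior count 0.5, dose rank, other curves, only the 2 groups compared, and leaving out each litter. The alternative without vehicle litter 1 and 100 mg/kg/day litter 1 was chosen after seeing the data. Methods were tested on simulated data.

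Named genes were, of each list, the members that passed and otherwise up to 3 with the smallest trend p, the 10 genes most and 3 least like Star by Pearson r, and the 3 nearest genes on each side. The gene and the lists were chosen with earlier results of these data known. Litters come from separate dams and carry numbers in accession order. The result of 1 member of the cholesterol supply list is not reported here.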

Additional observations from a re-analysis of the deposited data

How the results depend on the processing

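Star kept its direction against vehicle at all 4 doses, and in the trend, under every setting run. At 100 mg/kg/day DESeq2 called it (-1.14, adjusted p = 0.0492). Other settings with all litters, or without vehicle litter 1 and 100 mg/kg/day litter 1, gave -1.25 to -1.14. Fits without 1 litter gave -1.43 to -0.96. Leaving out 1 litter gave -2.04 to -1.69 at 300 mg/kg/day, with 7 of 14 edgeR calls lost (adjusted p = 0.00321 to 0.269), and -2.75 to -2.40 at 900 mg/kg/day, with 2 lost. The step from 600 to 900 mg/kg/day turned to 0.057 with library totals, to 0.0045 with no filter, and ranged from -0.25 to 0.065 without 1 litter, so its sign is not fixed. The slope of the ratio to Fdx1 turned to -0.022 on dose rank and ranged from -0.025 to 0.029 without 1 litter. Without vehicle litter 1 and 100 mg/kg/day litter 1, the ratio to Cyp11a1 turned to 0.013 and that to Cyp17a1 passed at 0.17 (permutation, adjusted p = 0.0321). The cause of these changes was not tested. The Inha ratio passed without any 1 litter (-0.18 to -0.13, adjusted p = 0.0180 to 0.0420 by permutation).

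Counts of all genes called moved more than Star did. Over the 3 upper doses and the trend, in that order, edgeR called 6, 28, 32 and 54 genes, and DESeq2 26, 59, 86 and 119. Fits of only the 2 groups gave 4, 8 and 4 genes, and 2143 in place of 0 between 900 and 600 mg/kg/day. Without vehicle litter 1 and 100 mg/kg/day litter 1 edgeR gave 39, 66, 2102 and 1494, and 1769 between 900 and 600 mg/kg/day. With size factors as in DESeq2 15, and with upper quartile scaling 13, passed at 600 mg/kg/day. No filter gave 4 at 300 mg/kg/day, and 80 passed on dose rank. Without 1 litter the counts were 0 to 9, 6 to 50, 0 to 50 and 30 to 76.

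Of 1209 alternative values for 55 results on other named genes none turned in sign, 182 lost and 32 gained a call. Leave-one-out fits lost the calls of Hsd3b1 in the trend 13 times in 14, Insl3 in the trend 11, Stard4 at 900 mg/kg/day 11, Pcyt2 at 600 mg/kg/day 12 and Cyp11a1 and Hsd3b3 at 600 mg/kg/day 9 times each. They also lost those of Ldb3 and Lrrc39 at 600 mg/kg/day 12 and 11 times, and those of Scarb1 and Fdx1 at 300 and Inha at 600 mg/kg/day 8 times each. Fdft1 at 600 mg/kg/day lost its call 5 times, Acat2 4, Stc2 at that dose and Cebpb at 900 mg/kg/day 3, Scarb1, Cyp17a1 and Inha at 900 mg/kg/day 2, and Cyp11a1, Fdx1 and Hsd3b3 there 1. No paired analysis was possible because no litter carries a number that links it to another dose.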
